A study of Saccharomyces cerevisiae with 15 samples.

Results

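The effect of an overdose of PRT1 on the transcriptome of a budding yeast RNA polymerase III (Pol III) mutant was examined by comparing 3 cultures of rpc128-1007 [PRT1] with 3 cultures of the same mutant carrying an empty vector, written rpc128-1007 below. The comparison takes in every gene of the count table, without selection by any measured value: 6600 genes were counted and the 5851 that passed a filter on low counts were tested. All strains of the series share a haploid a-mating-type background (MATa) with SUP11 and mutant alleles of ADE2, URA3, LYS2, LEU2 and HIS3. They also share the chromosomal rpc128-1007 allele of RET1 (RPC128), the gene of the second-largest Pol III subunit. This allele impairs assembly of the enzyme and makes cells cold-sensitive. SUP11 encodes a suppressor tRNA, and the study read its dosage from colony colour through the nonsense allele of ADE2. The ADE2 marker therefore depends on a tRNA, and the part of this in the mRNA levels was not tested. In [PRT1] the multicopy plasmid carries a chromosome XV insert that holds the whole of PRT1 together with a 3′ portion of its neighbour PRE10. The strain is therefore a model of an overdose of both segments and not of PRT1 alone. The study states that suppression required PRT1, based on a deletion within the insert. As a further control, wt is the same mutant with native RPC128 on a centromeric URA3 plasmid, and [RBS1] and [RBS1-R3H] carry multicopy LEU2 plasmids with an assembly factor gene or its R3H-domain mutant. Plasmids were selected for in the starter cultures only, and the poly(A) RNA that was sequenced came from log-phase cultures in YPD, a rich medium that does not select for them.

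Pol III makes the tRNAs, the 5S rRNA and other short RNAs of the cell. Prt1 is the b subunit of eIF3, the complex that helps bring the initiator tRNA and the mRNA to the small ribosomal subunit, and PRE10 encodes a proteasome subunit of the core particle. When charged or initiator tRNA runs short, yeast cells translate more Gcn4, a transcription factor that binds TGACTCA in the promoters of amino acid biosynthesis genes; this response is called general amino acid control. Gcn4 output is therefore set largely by translation of the GCN4 mRNA and by stability of the protein, which mRNA counts do not measure.

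Total counts were 7365923 to 10111376 in [PRT1] libraries and 10632690 to 12164321 in rpc128-1007 libraries. Levels are given as CPM (reads on a gene divided by the scaled total of its library in units of 1e+06 reads), and differences as log2 fold changes of [PRT1] over rpc128-1007 with their standard error (SE) from edgeR's quasi-likelihood test, with Benjamini-Hochberg adjusted p-values and a threshold of 0.05. The a-specific receptor gene STE2 was expressed in every library. The 8 mitochondrially encoded genes on the lists did not pass the filter, so mitochondrial transcripts were not tested. RET1 had 204, 210 and 182 CPM in [PRT1], against 192, 230 and 199 CPM in rpc128-1007, and averaged 448 CPM in wt, which carries an added copy. Gene length moved with library: Spearman's rho between gene length and the deviation of a library from the mean of its strain was 0.424, 0.0426 and -0.46 in [PRT1] replicates 1 to 3, and -0.325, 0.559 and -0.383 in rpc128-1007 replicates 1 to 3. Its part in the results was not tested beyond the fit with length offsets reported in the closing section.

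The genes of the insert showed the largest rises. PRT1 had 4947, 5057 and 4449 CPM in [PRT1], against 625, 715 and 556 CPM in rpc128-1007. The lowest [PRT1] library was above the highest mutant library by a wide margin, and the fold change was 7.62, a log2 difference of 2.93 (SE 0.11, adjusted p = 1.38e-09). PRE10 had 1606, 1766 and 2079 CPM in [PRT1], against 244, 223 and 295 CPM in rpc128-1007, a difference of 2.84 (SE 0.14, adjusted p = 2.97e-08). Counts per gene do not separate plasmid from chromosomal transcripts, and for PRE10 they do not separate the 3′ part carried by the insert from full-length mRNA. The next genes on either side did not share this rise. VTS1, encoding an RNA-binding protein, had a difference of -0.19 (adjusted p = 0.328) and PDE2, encoding a cAMP phosphodiesterase, one of -0.08 (adjusted p = 0.603), whereas PIP2, a regulator of peroxisomal genes beyond PRE10, fell by 0.61 (adjusted p = 0.00125).

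The plasmid marker genes also differed. URA3 had 958, 997 and 959 CPM in [PRT1], against 2295, 2028 and 2036 CPM in rpc128-1007, a difference of -1.13 (SE 0.09, adjusted p = 1.56e-06). LEU2 had 362, 508 and 497 CPM in [PRT1], against 685, 897 and 788 CPM in rpc128-1007, a difference of -0.79 (SE 0.18, adjusted p = 0.00529). URA3 makes uracil and LEU2 makes leucine, and both are targets of metabolic control as well as plasmid markers. In the strains with LEU2 plasmids, URA3 had 183 to 220 CPM in [RBS1] and 186 to 227 CPM in [RBS1-R3H], so [PRT1] was higher than [RBS1] by 2.30 (adjusted p = 1.26e-09). LEU2 had 1898 to 3028 CPM in [RBS1] and 3410 to 4429 CPM in [RBS1-R3H], far above [PRT1], and [PRT1] was at 0.30 relative to wt (adjusted p = 0.317), which carries a URA3 plasmid. URA3 had 746, 746 and 722 CPM in wt, below every [PRT1] library. The marker of the sequenced [PRT1] plasmid is not given in the sources used here.

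Of the 5851 genes tested, 1278 (21.8%) differed between [PRT1] and rpc128-1007. In [PRT1], 474 genes (8.1%) were higher and 804 (13.7%) were lower. The medians of the called genes were 0.62 and -0.61, 42 higher and 151 lower genes differed by more than 2-fold, and 6 and 30 by more than 4-fold. The median over all tested genes, which the scaling of the libraries holds near 0, was 0.02.

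These calls were not spread evenly over the chromosomes. On chromosome VIII, 219 of 280 tested genes (78.2%) were higher in [PRT1] and 4 were lower, with a median of 0.74, which is 1.67-fold. On chromosome XI, 240 of 309 tested genes (77.7%) were lower and 0 were higher, with a median of -0.59. Chromosome I showed a smaller offset in the same direction as XI: 19 of 82 tested genes (23.2%) were lower, 0 were higher and the median was -0.16. Of the genes not called higher, 1 of chromosome XI and 2 of chromosome I had a positive difference at an unadjusted p under 0.05, and DESeq2 and limma-voom called 0 higher on both. On each of the other 13 chromosomes the median lay between 0.0015 and 0.033, between 3.68% and 6.69% of genes were higher and between 8.13% and 14% were lower. Chromosome VIII held 4.79% of the tested genes but 46.2% of the genes called higher, and chromosome XI held 5.28% of the tested genes but 29.9% of those called lower. These 3 chromosomes were singled out after their values were seen.

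The level of each chromosome in each library, taken as the median over its genes of the log2 ratio to the wt mean, shows which strain departs from wt. For chromosome VIII it was 0.957, 0.959 and 0.974 in [PRT1], against 0.095, 0.287 and 0.334 in rpc128-1007. The [PRT1] libraries lay close to each other and near 1, the log2 value of a 2-fold level, while the mutant libraries were lower and more spread. For chromosome XI it was 0.0024, -0.025 and -0.041 in [PRT1], against 0.819, 0.36 and 0.488 in rpc128-1007, so it was the mutant that stood above wt and [PRT1] did not. For chromosome I it was 0.0044, 0.00096 and -0.027 in [PRT1], against 0.0313, 0.282 and 0.3 in rpc128-1007. The groups did not overlap on any of the 3, and the differences of the means were 0.725, -0.577 and -0.212. No test is given for them, since these chromosomes were chosen for their values. In the [RBS1], [RBS1-R3H] and wt libraries the same 3 medians lay between -0.0564 and 0.046.

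**Figure D1:**
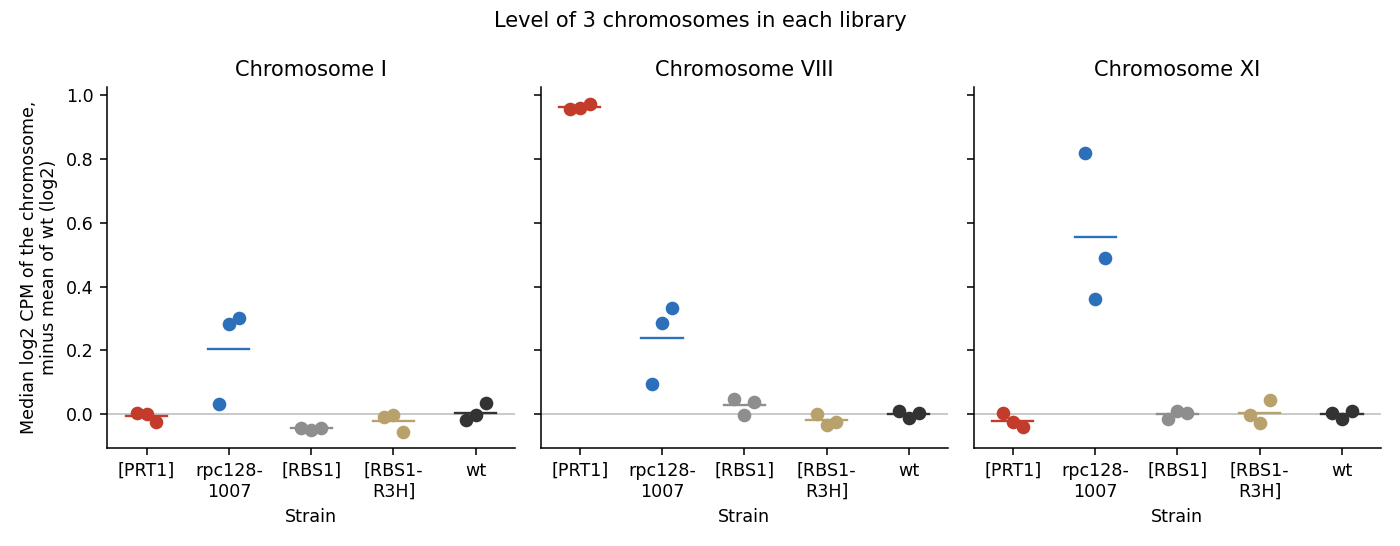
Median log2 ratio to the wt mean over the genes of chromosomes I, VIII and XI (vertical axis), with 1 point per library, a bar at the mean of each strain and the 5 strains along the horizontal axis. The 3 [PRT1] points sit between 0.957 and 0.974 on chromosome VIII and near 0 on XI and I, whereas the rpc128-1007 points are spread between 0.095 and 0.334 on VIII and between 0.36 and 0.819 on XI.

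The shift was seen in every part of these chromosomes that had enough genes to summarise. In windows of 50 kb with at least 10 genes, the median difference lay between 0.609 and 0.856 in the 11 windows of chromosome VIII, between -0.708 and -0.529 in the 13 windows of chromosome XI and between -0.189 and -0.152 in the 4 windows of chromosome I. DNA copy number was not measured, and whether the mRNA shifts follow chromosome number in these cultures was not tested. They bear on each group below that has members there, and most such groups are also given without those members. Without the genes of these chromosomes, 5180 genes remained, of which 255 (4.92%) were higher and 541 (10.4%) were lower, with medians of 0.38 and -0.61. More than 2-fold differences were then left in 22 higher and 123 lower genes, and more than 4-fold differences in 4 and 28.

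**Figure D2:**
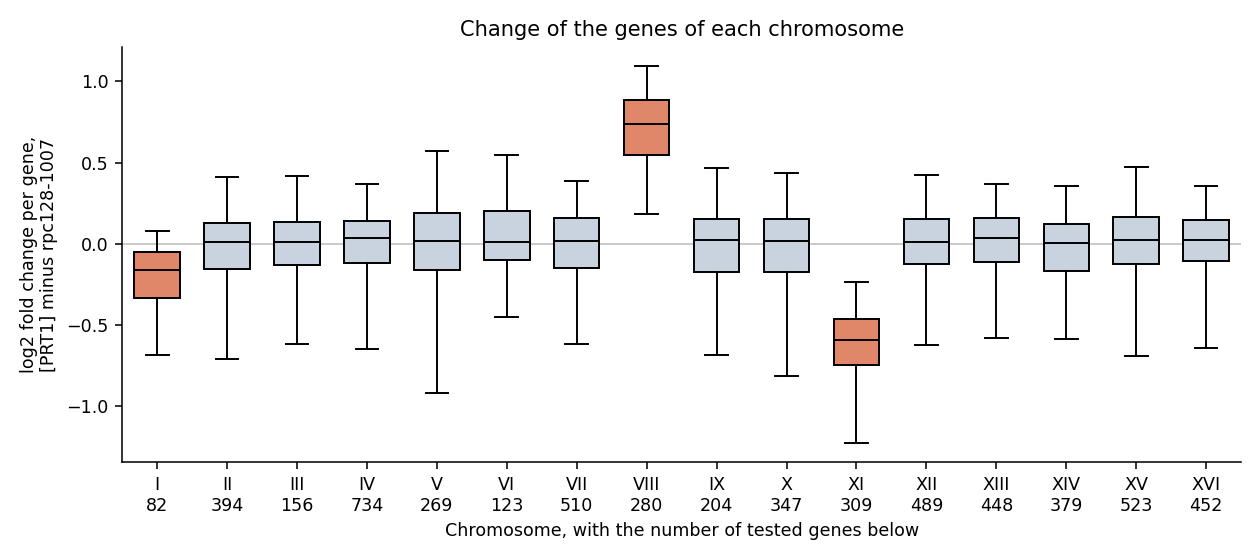
Log2 fold changes of [PRT1] over rpc128-1007 for the tested genes of each chromosome, with the median and quartiles as boxes, whiskers to the outer 5% on either side and the number of genes below. The genes of chromosome VIII centre on 0.74 and those of XI on -0.59, while the other chromosomes apart from I have medians between 0.0015 and 0.033.

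Genes of amino acid and vitamin synthesis were among those that fell most. Among the 10 largest falls of called genes with at least 10 CPM on average and no overlap between the strains were RTC2, ARG3, ARG1, SNZ1, ARO5, TMT1, SNO1, ADH5 and URA10, which all lie outside chromosomes I, VIII and XI. The promoters of 5 of these 9 hold the Gcn4 recognition sequence TGACTCA or its reverse complement TGAGTCA between 250 bases before and 50 after the annotated start. A choice of matches from these and other promoters is printed with 10 bases on either side, from the R64 reference and on the strand of the gene, with the recognition sequence in capitals. The first lines are from genes with the largest falls and from classical targets, and the last 3 are from genes on chromosomes VIII and XI, which are described with the shifts of those chromosomes.
RTC2 (chrII:536343-536369, plus strand): cttgcagcaaTGACTCAaattccattg
TMT1 (chrV:540517-540543, minus strand): ttgatgttcaTGACTCAcagtaatatc
URA10 (chrXIII:807761-807787, minus strand): gctctacaccTGACTCAcatgacagca
GGC1 (chrIV:104691-104717, minus strand): caaaaactcgTGAGTCActgtgcattt
HIS4 (chrIII:68516-68542, minus strand): ccatgcacagTGACTCAcgttttttta
ARG56 (chrV:295177-295203, plus strand): cttatccgaaTGACTCAgtctacatca
ARG4 (chrVIII:141565-141591, minus strand): agtagatgaaTGACTCActttttggat
BAT1 (chrVIII:517351-517377, plus strand): tgccttcttaTGACTCAaaattctatt
TRP3 (chrXI:38260-38286, minus strand): aatggctcgtTGACTCAttctaatcta

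The distance from the match to the start was 215 bases in RTC2, 163 in TMT1, 149 in GGC1 and 192 in HIS4. TGACTCA was found on either strand in 2.73% of the 6001 promoters of the reference. It was in 8.85% of the genes called lower, in 30.9% of those lower by more than 2-fold (46 of 149) and in 55.2% of those lower by more than 4-fold (16 of 29), against 1.48% of the genes called higher and 0 of the 42 higher by more than 2-fold. Read the other way, 71 of 161 tested genes with the sequence (44.1%) were lower and 7 were higher, with a median of -0.27, and 731 of 5537 without it (13.2%) were lower, with a median of 0.02. ARG1, ARG3, ARO5 and SNZ1 had no match in this window, which says only that these letters are not in it.

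ARG1, ARG3, HIS4, LYS20, BAT1 and other genes named by the study were picked by its authors from these same libraries, so their direction is not independent evidence. All 10 genes of arginine biosynthesis fell, with a median of -2.27, and the 9 outside chromosomes I, VIII and XI had a median of -2.26. ARG1, encoding argininosuccinate synthase, had 110, 85.7 and 126 CPM in [PRT1], against 1660, 1225 and 1032 CPM in rpc128-1007. ARG3, encoding ornithine carbamoyltransferase, had 17.3, 10.3 and 13.8 CPM in [PRT1], against 237, 156 and 118 CPM in rpc128-1007. The lowest mutant library exceeded the highest [PRT1] library several-fold in both genes, and the differences were -3.61 (SE 0.38, adjusted p = 9.84e-06) and -3.63 (SE 0.35, adjusted p = 6.48e-06). Summed over the list, arginine transcripts were 1007, 885 and 1003 CPM in [PRT1], against 7136, 5268 and 4277 CPM in rpc128-1007 and 1136, 854 and 1639 CPM in wt. The [PRT1] sums lay within the range of wt. The highest sum was that of rpc128-1007 replicate 1, the library with the highest chromosome XI median, and its part in the result was not tested beyond the fits without it, in which all 10 genes were still called.

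Lysine and histidine biosynthesis followed the same pattern. All 9 lysine genes fell, with a median of -1.40. LYS1, the last enzyme of the pathway, had 186, 164 and 190 CPM in [PRT1], against 1081, 711 and 552 CPM in rpc128-1007, a difference of -2.12 (SE 0.25, adjusted p = 2.27e-05). LYS20, a homocitrate synthase, fell by 1.75, though its reads may be shared with its close paralogue LYS21. Of the 7 histidine genes 6 fell, with a median of -1.16 over the list. HIS4, a multifunctional enzyme of the pathway, had 312, 272 and 285 CPM in [PRT1], against 1881, 1569 and 1208 CPM in rpc128-1007, a difference of -2.42 (SE 0.19, adjusted p = 1.82e-06). HIS6 alone of the list was not called (0.10, adjusted p = 0.642), with 57.4, 50.4 and 48.7 CPM in [PRT1] and 46.2, 54.7 and 44.9 CPM in rpc128-1007. HIS3, which carries a mutant allele in this background, fell by 1.81.

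**Figure D3:**
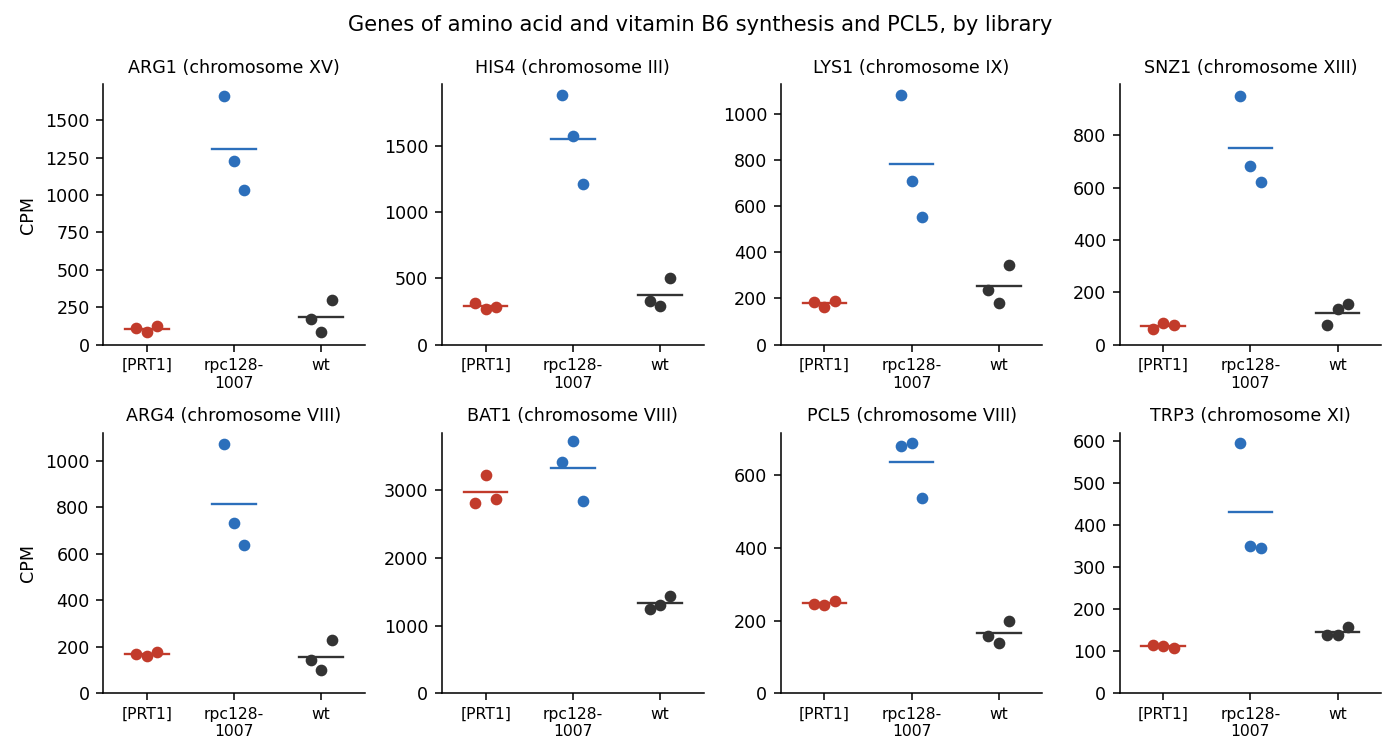
Levels in CPM (vertical axes) of 8 genes in [PRT1], rpc128-1007 and wt, with 1 point per library and a bar at the mean. The 3 [PRT1] libraries lie below the 3 rpc128-1007 libraries for ARG1, HIS4, LYS1, SNZ1, ARG4, PCL5 and TRP3, and overlap them for BAT1 on chromosome VIII.

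The branched-chain and aromatic pathways were lower as well. Of 13 branched-chain genes, 10 were lower and 0 higher, with a median of -0.92, and outside the 3 chromosomes 9 of 11 were lower. ILV6, the regulatory subunit of acetolactate synthase, fell by 1.76. LEU4, which opens the leucine branch, was at -1.70. LEU4 had 383, 392 and 416 CPM in [PRT1], against 1567, 1280 and 1031 CPM in rpc128-1007. Of 14 aromatic genes, 10 were lower and 0 higher, with a median of -1.18, and outside the 3 chromosomes 9 of 12 were lower. ARO3, a DAHP synthase at the head of the shikimate pathway, had 301, 288 and 316 CPM in [PRT1], against 1349, 1004 and 886 CPM in rpc128-1007, a difference of -1.84 (SE 0.15, adjusted p = 1.83e-06).

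Sulfate assimilation and methionine genes numbered 28, of which 18 fell and 1 rose, with a median of -0.66, and outside the 3 chromosomes 16 of 25 fell and 1 rose. MET13, a methylenetetrahydrofolate reductase, had 28.7, 34.1 and 28.1 CPM in [PRT1], against 179, 166 and 117 CPM in rpc128-1007. MET17, homocysteine synthase, was at -2.02 and HOM2, an enzyme shared with threonine synthesis, at -1.80. The single member that rose was MMP1, the S-methylmethionine permease, with a difference of 0.60 (adjusted p = 0.00997). Serine, glycine, threonine and folate-linked genes fell in 10 of 15 cases with none higher (median -0.57), and in 9 of 12 outside the 3 chromosomes, led by GCV2 of the glycine decarboxylase complex at -1.06. Of 18 genes of glutamate, proline, asparagine and ammonium metabolism 7 fell and 1 rose, and outside the 3 chromosomes 7 of 16 fell, among them the asparagine synthetase ASN1, with 1259, 1182 and 1259 CPM in [PRT1], against 3253, 2664 and 2247 CPM in rpc128-1007. The member that rose, PUT2 of proline degradation, lies on chromosome VIII, and its difference was 0.45 as measured and -0.26 once the median of each chromosome was set to the same level in every library.

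The pathways that use amino acids or supply their cofactors fell too. Of 21 genes of vitamin B6, NAD and riboflavin synthesis, none of them on the 3 chromosomes, 12 fell and 1 rose. SNZ1, of pyridoxal phosphate synthesis, had 59.9, 81.2 and 74.5 CPM in [PRT1], against 950, 683 and 621 CPM in rpc128-1007, a difference of -3.39 (SE 0.26, adjusted p = 1.56e-06), and its partner SNO1 fell by 3.00. SNZ1 has close paralogues, so its value is uncertain where reads were shared. BNA1 of NAD synthesis was at -2.26 and the riboflavin synthase gene RIB5 at -1.82. Of 16 purine genes 5 were lower and 0 higher, and outside the 3 chromosomes 3 of 13 were lower. Of 13 pyrimidine genes 7 were lower and 1, FUR1 on chromosome VIII, was higher. The 7 include the marker URA3 and genes of chromosome XI such as URA6, and outside the 3 chromosomes 5 of 10 were lower and 0 higher. The lowest was URA10, a minor orotate phosphoribosyltransferase, at -2.87. Thiamine and biotin genes were near the background, with 3 of 21 lower and 0 higher.

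Mitochondrial carriers fell in 11 of 25 cases and 1 rose. GGC1, the GTP/GDP carrier, had 156, 141 and 186 CPM in [PRT1], against 1349, 822 and 811 CPM in rpc128-1007, a difference of -2.63 (SE 0.23, adjusted p = 2.90e-06). YMC1, a carrier of the inner membrane, fell by 1.26. Outside the 3 chromosomes, 11 of 24 carriers were lower and 0 higher. Among alcohol and aldehyde dehydrogenases and malic enzyme, 4 of 17 fell and 3 rose, and outside the 3 chromosomes 3 of 16 fell and 3 rose. ADH5 had 26.1, 22.7 and 26.9 CPM in [PRT1], against 247, 185 and 162 CPM in rpc128-1007, a difference of -2.98, and ALD5, a mitochondrial aldehyde dehydrogenase, fell by 1.29. RTC2, which encodes a vacuolar membrane protein and fell most of all genes named, had 2.61, 2.40 and 3.24 CPM in [PRT1], against 62.9, 35.8 and 26.1 CPM in rpc128-1007, a difference of -3.93 (SE 0.45, adjusted p = 1.99e-05).

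Uptake and use of amino acids changed in part. Of 19 amino acid permeases 6 were lower and 2 higher, and outside the 3 chromosomes 5 of 17 were lower and 2 higher. BAP2, which takes up branched-chain amino acids, fell by 0.80, and ALP1, a basic amino acid permease, rose by 0.90. The count of 8 permeases called was 5 without [PRT1] replicate 2 and 4 without rpc128-1007 replicate 1. Of 22 aminoacyl-tRNA synthetases 9 were lower and 2 higher, and the higher genes, YHR020W and DED81, both lie on chromosome VIII. Their differences were 0.40 and 0.23 as measured, and -0.31 and -0.49 with chromosome medians removed. The lysyl-tRNA synthetase gene KRS1 fell by 0.72.

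Genes of general amino acid control themselves changed little. GCN4 mRNA had 1072, 1206 and 1220 CPM in [PRT1], against 1446, 1309 and 1332 CPM in rpc128-1007, and averaged 1057 CPM in wt. Its difference was -0.22 (SE 0.07, adjusted p = 0.0387), which is small beside that of its target genes and was not called in 10 of 17 alternatives. Without [PRT1] replicates 1, 2 and 3 in turn the adjusted p was 0.17, 0.0987 and 0.0707, and without rpc128-1007 replicates 1 and 3 it was 0.132 and 0.0577. Of 15 genes of the list 4 were called, all lower, but 2 of these lie on chromosomes VIII and XI. The count was 2 without [PRT1] replicate 2, [PRT1] replicate 3 or rpc128-1007 replicate 1. IGD1, an inhibitor of the glycogen debranching enzyme, had a difference of 0.17 and was not called.

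On chromosome VIII the fall in amino acid genes and the rise of the chromosome met in the same transcripts. The 4 genes of this chromosome that were called lower, beside 219 called higher, were ARG4, YHI9, PCL5 and IMD2. ARG4, argininosuccinate lyase, had 169, 159 and 178 CPM in [PRT1], against 1071, 732 and 639 CPM in rpc128-1007, a difference of -2.27 (SE 0.25, adjusted p = 1.74e-05) that became -3.01 with chromosome medians removed. PCL5, the cyclin that targets Gcn4 protein for degradation, had 245, 243 and 253 CPM in [PRT1], against 680, 689 and 538 CPM in rpc128-1007, a difference of -1.36 that became -2.09. IMD2, an IMP dehydrogenase, had 147, 137 and 148 CPM in [PRT1], against 182, 315 and 267 CPM in rpc128-1007. BAT1, the mitochondrial branched-chain aminotransferase, did not pass the test as measured: it had 2804, 3228 and 2873 CPM in [PRT1], against 3420, 3722 and 2840 CPM in rpc128-1007, a difference of -0.16 (adjusted p = 0.369). With chromosome medians removed it was -0.89 and called (adjusted p = 0.000343). Its 3 [PRT1] libraries overlapped those of the mutant, and its mean in wt was 1330 CPM.

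On chromosome XI the shift of the chromosome and the fall in amino acid genes had the same sign. TRP3, of tryptophan synthesis, had 115, 113 and 108 CPM in [PRT1], against 595, 351 and 345 CPM in rpc128-1007, a difference of -1.94 that became -1.32 with chromosome medians removed. OAC1, the mitochondrial oxaloacetate carrier, had 428, 569 and 493 CPM in [PRT1], against 1956, 1163 and 1267 CPM in rpc128-1007, a difference of -1.56 that became -0.94. SRY1, a 3-hydroxyaspartate dehydratase, had the lowest value of the chromosome, -2.83, and MAE1, the malic enzyme, fell by 1.42. Of genes with TGACTCA, 6 of 9 on chromosome XI were lower (66.7%), against 234 of 300 without it (78%). On chromosome VIII, 1 of 5 with it was lower and 3 were higher, against 3 lower and 216 higher of 275 without it. On chromosomes other than I, VIII and XI, 63 of 144 with it (43.8%) were lower and 4 higher, against 476 lower (9.75%) and 251 higher of 4883 without it.

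Mitochondrial ribosomal protein genes, which are nuclear-encoded and make the translation machinery of mitochondria, had the most calls of any list. Of 73 tested 57 were lower and 1 higher, with a median of -0.54, and 70 of 73 differences were negative. None of their promoters held TGACTCA in the window searched. The sum over the list was 5186, 4668 and 5354 CPM in [PRT1], against 7209, 6820 and 8013 CPM in rpc128-1007 and 6458, 6042 and 6346 CPM in wt. All [PRT1] sums were below all mutant sums, and also below those of wt. They lay within the range of the other plasmid strains, at 5031, 4407 and 5632 CPM in [RBS1] and 5192, 4324 and 6368 CPM in [RBS1-R3H]. Against [RBS1] the median of the list was -0.03, with 2 genes higher in [PRT1] and 0 lower. A low level of this list was therefore not particular to [PRT1]. Outside chromosomes I, VIII and XI, 51 of 64 were lower, with a median of -0.53. MRPS9 on chromosome II had 124, 104 and 115 CPM in [PRT1], against 185, 172 and 203 CPM in rpc128-1007, a difference of -0.71 (adjusted p = 0.00141). On chromosome XI the falls were larger, with -1.33 for MRPL31, -1.20 for RSM22 and -1.12 for MRPL20, and MRPL6 on chromosome VIII was the single member that rose (0.50 as measured, -0.21 with chromosome medians removed). The single changes are small, and the count of 58 calls was 32 without [PRT1] replicate 2 and 37 without rpc128-1007 replicate 3.

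The respiratory chain was mostly not called. Of 43 nuclear genes of the respiratory chain and ATP synthase 1 was higher and 1 lower, with a median of 0.12. The count of 2 was 1 without [PRT1] replicate 2, [PRT1] replicate 3 or rpc128-1007 replicate 3. The higher gene, COX6, lies on chromosome VIII and the lower, HAP5, encodes a subunit of the activator of respiratory genes. HAP5 was not called without [PRT1] replicate 2 or 3 or rpc128-1007 replicate 3 (adjusted p between 0.0524 and 0.0875). Of 31 genes of the TCA cycle and retrograde signalling 12 were lower and 0 higher, and outside the 3 chromosomes 10 of 28 were lower. The count of 12 was 7 without [PRT1] replicate 2. Among the larger falls were those in PYC2, pyruvate carboxylase, at -1.32 and in IDP1, mitochondrial isocitrate dehydrogenase, at -1.09. PYC2 had 306, 317 and 296 CPM in [PRT1], against 891, 789 and 620 CPM in rpc128-1007.

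Phosphate starvation genes formed the list with the highest share of rises. Many of these genes are turned on by the factor Pho4 when phosphate is scarce, and encode transporters, secreted phosphatases and the enzymes that store polyphosphate. The list is wider than the targets of Pho4 and also holds PHO4 itself, PHO80, PHO85, PHO90, PHO91 and CTF19. Of 26 tested 15 rose and 0 fell, with a median of 0.73, and 22 of 26 differences were positive. Outside the 3 chromosomes 13 of 23 rose, with a median of 0.66. At an unadjusted p under 0.05 the list had 17 higher and 1 lower member, DESeq2 called 16 higher and 1 lower, and limma-voom 16 higher and 0 lower. The largest change was in SPL2, which dampens low-affinity phosphate uptake and whose promoter held 3 copies of CACGTG, the sequence bound by Pho4 and Cbf1. They are printed from R64 with 10 bases on either side, on the strand of the gene and with CACGTG in capitals.
SPL2, far match (chrVIII:375232-375257, minus strand): atgatgtacgCACGTGggcgaaagtt
SPL2, middle match (chrVIII:375175-375200, minus strand): tctcttttccCACGTGctccgctctc
SPL2, near match (chrVIII:375116-375141, minus strand): tcactgcagcCACGTGcctagatcta

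The 3 copies end 141, 84 and 25 bases before the start. CACGTG was in 6 of the 26 phosphate promoters (23.1%), against 2.92% of all promoters, and in 3.59% of the genes called higher and 2.87% of those called lower. SPL2 had 300, 321 and 237 CPM in [PRT1], against 74.7, 73.5 and 28.7 CPM in rpc128-1007, a difference of 2.28 (SE 0.44, adjusted p = 0.00164). It lies on chromosome VIII, and with chromosome medians removed the difference was 1.54. PHM6, a phosphate-regulated gene of unknown function on chromosome IV, had 76.4, 104 and 77.5 CPM in [PRT1], against 28.7, 19.0 and 13.5 CPM in rpc128-1007, a difference of 2.08 (SE 0.26, adjusted p = 4.57e-05). The groups did not overlap in either gene.

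PHO89, the sodium-phosphate cotransporter, had 169, 274 and 162 CPM in [PRT1], against 45.2, 90.5 and 19.7 CPM in rpc128-1007, a difference of 1.96 (SE 0.53, adjusted p = 0.0153). This call was lost without [PRT1] replicate 2 (adjusted p = 0.0621), rpc128-1007 replicate 1 (0.0574) or rpc128-1007 replicate 3 (0.0515). PHO12, an acid phosphatase with a near-identical copy, PHO11, on chromosome I, had 1318, 1247 and 860 CPM in [PRT1], against 480, 616 and 185 CPM in rpc128-1007, a difference of 1.42 (adjusted p = 0.046). Of these values, PHO12 was the least firm: its adjusted p was 0.408 with chromosome medians removed and between 0.0505 and 0.143 without [PRT1] replicates 1, 2 or 3 or rpc128-1007 replicates 1 or 3. GIT1, a glycerophosphoinositol permease, rose by 1.35, the repressible acid phosphatase PHO5 by 1.06 and VTC3, VTC1 and VTC4 of the polyphosphate polymerase complex by 1.22, 0.95 and 0.89. The high-affinity transporter PHO84 had 2291, 2483 and 1721 CPM in [PRT1], against 1313, 1476 and 534 CPM in rpc128-1007. Although its libraries did not overlap, its difference of 0.97 did not pass the test (SE 0.51, adjusted p = 0.212).

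**Figure D4:**
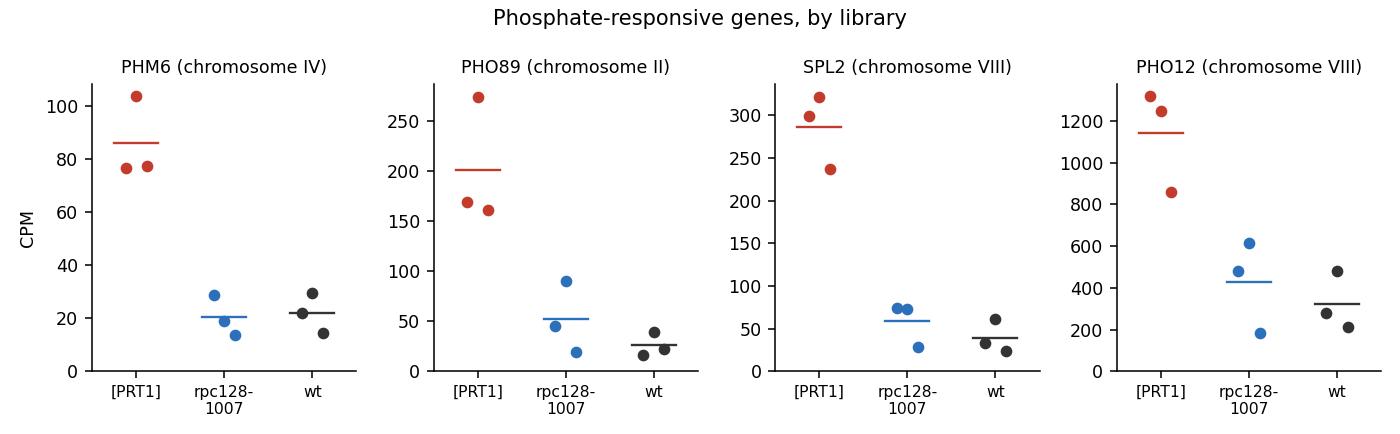
Levels in CPM (vertical axes) of PHM6, PHO89, SPL2 and PHO12 in [PRT1], rpc128-1007 and wt, with 1 point per library and a bar at the mean. All 3 [PRT1] libraries lie above all rpc128-1007 and wt libraries, and replicate 3 is the lowest rpc128-1007 library in each panel.

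The sum over the phosphate list was 9247, 9790 and 7167 CPM in [PRT1], against 5019, 5898 and 3041 CPM in rpc128-1007 and 3415, 5571 and 3367 CPM in wt. Replicate 3 was the lowest and replicate 2 the highest library in each of the 5 strains. The sums were 2465, 3759 and 1922 CPM in [RBS1] and 2282, 2499 and 2207 CPM in [RBS1-R3H]. The part of this shared order in the calls was not tested beyond the fit with the replicate block. The count of 15 genes was 9 without [PRT1] replicate 1, 8 without [PRT1] replicate 2, 7 without rpc128-1007 replicate 1 and 6 without rpc128-1007 replicate 3. With chromosome medians removed it was 11.

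Proteasome genes, of which PRE10 on the insert is a member, were higher in 9 of 35 cases and lower in 1, with a median of 0.23. Apart from PRE10, the 6 higher genes outside chromosomes I, VIII and XI had differences between 0.29 and 0.41. RPN9, of the regulatory particle, had 216, 188 and 220 CPM in [PRT1], against 147, 156 and 164 CPM in rpc128-1007, and RPN12 had 232, 225 and 250 CPM in [PRT1], against 175, 174 and 205 CPM in rpc128-1007. The groups did not overlap, but the differences of 0.41 and 0.35 are modest (adjusted p = 0.0028 and 0.00806). RPN10 and RPN1 on chromosome VIII were at 0.89 and 0.80, and at 0.18 and 0.09 with chromosome medians removed. RPT1 on chromosome XI was at -0.43, and at 0.17 with chromosome medians removed. The sum over the list was 11401, 11120 and 12608 CPM in [PRT1], against 8249, 7955 and 9544 CPM in rpc128-1007 and 11471, 10388 and 12468 CPM in wt. These sums include PRE10 of the insert. Without PRE10, the sums were 9796, 9354 and 10529 CPM in [PRT1], against 8004, 7732 and 9249 CPM in rpc128-1007 and 11100, 10055 and 12041 CPM in wt. The count of 10 was 6 without rpc128-1007 replicate 1 or 2 and 16 without rpc128-1007 replicate 3.

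The activator of proteasome genes, Rpn4, binds GGTGGCAAA, which was in 27 of 35 proteasome promoters (77.1%) and in 1.2% of all promoters. It is printed from R64 for chromosomal PRE10 and for RPN1 on chromosome VIII, with GGTGGCAAA in capitals. The PRE10 match lies before the start of the gene, and the insert carries only a 3′ part of PRE10.
PRE10 (chrXV:1018856-1018884, minus strand): cctctaaatcGGTGGCAAAaataagaaag
RPN1 (chrVIII:164838-164866, minus strand): tgtgttttacGGTGGCAAAaggcgagcac

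Of the 70 tested genes with GGTGGCAAA 12 were higher and 4 lower, with a median of 0.17. RPN4 mRNA had 103, 118 and 98.7 CPM in [PRT1] and 109, 135 and 99.1 CPM in rpc128-1007, and was not called (-0.10, adjusted p = 0.63).

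Other subunits of eIF3 did not rise with PRT1. NIP1 had 500, 527 and 482 CPM in [PRT1] and 508, 542 and 484 CPM in rpc128-1007, a difference of -0.02 (SE 0.08). TIF34 and TIF35 had differences of 0.12 and 0.09, with SEs of 0.08 each, and neither was called. RPG1, the large scaffold subunit, was lower, at 738, 667 and 531 CPM in [PRT1], against 836, 1000 and 800 CPM in rpc128-1007, a difference of -0.45 (adjusted p = 0.0244). This call was lost in the fit of both strains alone (adjusted p = 0.0679) and without [PRT1] replicate 2 (0.061), [PRT1] replicate 3 (0.131) or rpc128-1007 replicate 2 (0.103). Of 26 initiation factor genes 1, PRT1 itself, was higher and 5 were lower, close to the share of all tested genes, and 3 of those 5 lie on chromosomes I and XI. The count of 6 was 3 without [PRT1] replicate 3.

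Calls among ribosome assembly genes lay mostly on the shifted chromosomes. Of 109 ribosome assembly factors 10 were higher and 6 lower, and outside chromosomes I, VIII and XI 0 of 91 were higher and 1 was lower. Of these 91, 4 were higher at an unadjusted p under 0.05, DESeq2 called 1 higher and limma-voom 0. The 10 higher genes, among them IMP3, GAR1 and IPI1, all lie on chromosome VIII, and EBP2, LTV1 and RRP14, which were lower, on XI. Of 56 genes of the small cytosolic ribosomal subunit 3 were higher and 2 lower, and the higher ones, RPS27B, RPS20 and RPS4B, are on chromosome VIII. RPS9A and RPS14B, on chromosomes XVI and X, which were lower at -0.98 and -0.64, belong to near-identical pairs and are uncertain.

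Of 31 genes of Pol III, its factors and its regulators 4 were higher and 4 lower, with a median of 0.09. Outside the 3 chromosomes MAF1, TFC7 and SPT15 were higher, by 0.47, 0.25 and 0.22, and 0 were lower, also at an unadjusted p under 0.05. TFC7 was not called with chromosome medians removed (adjusted p = 0.0666), with both strains alone (0.106), without [PRT1] replicate 1 (0.105) or 3 (0.0913), or without rpc128-1007 replicate 1 (0.0817), 2 (0.115) or 3 (0.0523). DESeq2 called 6 members higher there. MAF1, the repressor of Pol III, had 68.7, 71.0 and 66.0 CPM in [PRT1], against 44.0, 55.7 and 48.4 CPM in rpc128-1007 (adjusted p = 0.00164). RPC37, a Pol III subunit gene, and FBA1, the glycolytic aldolase gene, both on chromosome XI, were at -0.59 and -0.60, and at 0.01 and -0.03 with chromosome medians removed. RPC10 on chromosome VIII was at 0.89, and at 0.16 with chromosome medians removed. The count of 8 was 5 without [PRT1] replicate 1 and 4 without [PRT1] replicate 3. Pol III transcripts themselves were not measured in these poly(A) libraries.

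**Figure D5:**
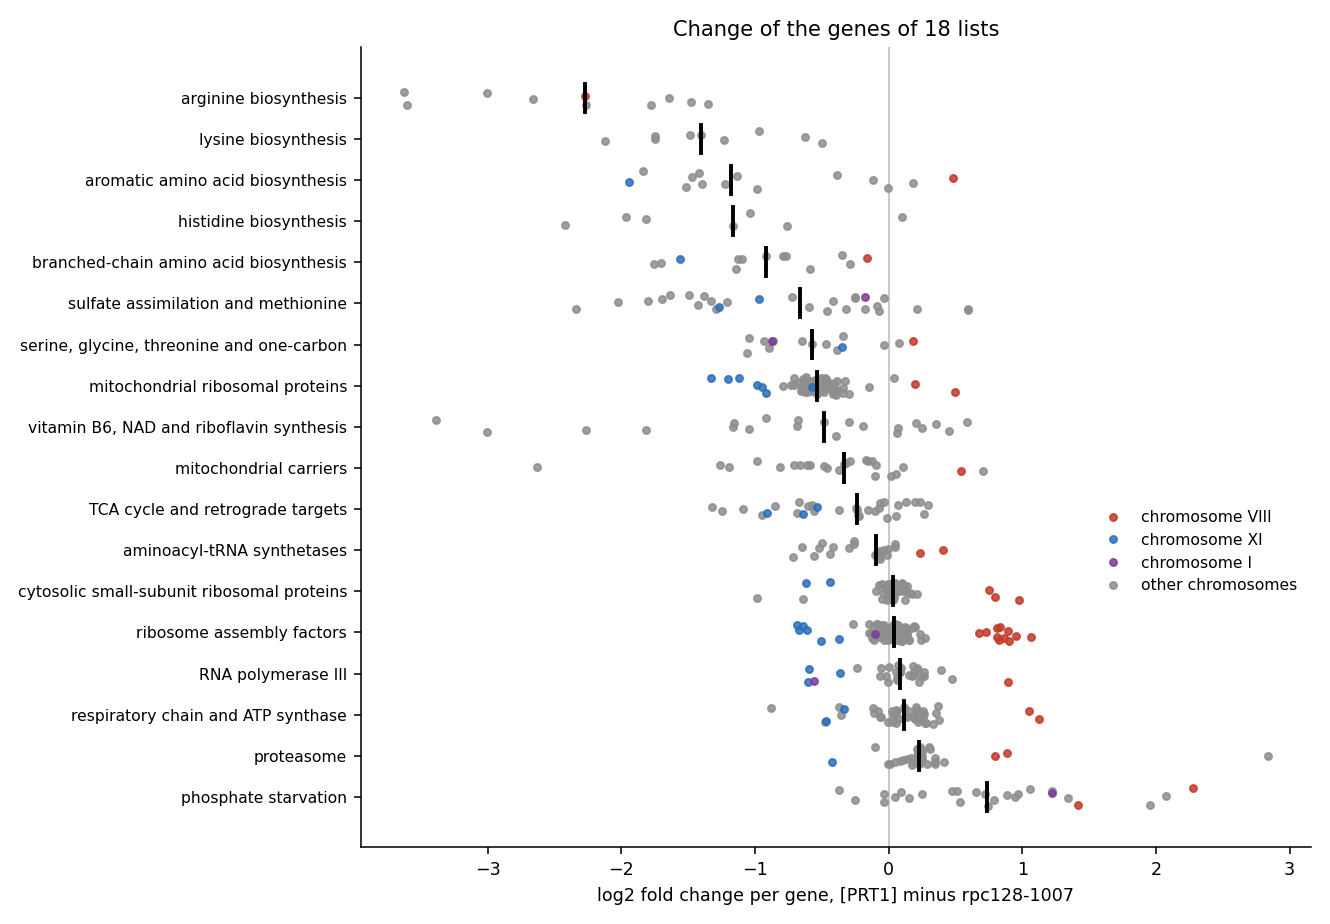
Log2 fold change of [PRT1] over rpc128-1007 (horizontal axis) for every tested gene of 18 lists, with 1 point per gene, a black bar at the median of each list and colours for chromosomes I, VIII, XI and others. Arginine genes centre on -2.27 and phosphate genes on 0.73, and the assembly factors far from 0 lie on chromosomes VIII and XI.

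By the same limits as for the falls, the 10 largest rises included PRT1, PRE10 and phosphate genes. The rest lay on chromosome VIII or at a locus on XII. YHR054C had 353, 340 and 392 CPM in [PRT1], against 86.2, 140 and 153 CPM in rpc128-1007, a difference of 1.52, and RSC30, of the RSC chromatin remodelling complex, one of 1.37. YHR054C is a partial copy of RSC30 within a repeated stretch of chromosome VIII, so the 2 values are not separate measurements. SSP1, a gene of spore formation on the same chromosome, averaged 34.5 ± 4.17 CPM in [PRT1], against 12.9 ± 3.61 CPM in rpc128-1007 (SD, n = 3 each), a difference of 1.41 (adjusted p = 8.61e-05). YLL053C on chromosome XII was at 1.46. Its neighbour AQY2, which is not among the 10, was at 1.34. Both are reading frames of an aquaporin locus and are likewise not separate observations.

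Set against wt, the [PRT1] strain differed in 700 genes (12%), of which 413 were higher and 287 lower. This comparison uses the same [PRT1] libraries as the one above, so its values are given side by side and not as separate evidence. Of the 413 genes higher than in wt, 235 lie on chromosome VIII, where the median was 0.97, which is 1.96-fold. On chromosome XI 4 genes were higher and 17 lower, with a median of -0.04. Outside chromosomes I, VIII and XI there were 170 higher and 267 lower genes. The count of 700 was 410 without [PRT1] replicate 1, 442 without [PRT1] replicate 2 and 417 without wt replicate 3.

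Most amino acid genes were not called against wt. In [PRT1] against wt, 0 of 10 arginine, 0 of 9 lysine and 0 of 7 histidine genes were called by edgeR's quasi-likelihood test, with medians of -0.35, -0.26 and 0.01. At an unadjusted p under 0.05, 3 arginine, 2 lysine and 2 histidine genes were lower, DESeq2 called 1 arginine and 1 lysine gene lower, and limma-voom called 0 in these lists. ARG1 was at -0.77 (adjusted p = 0.172) and ARG3 at -1.04 (adjusted p = 0.0731), so a level below wt was not shown for either in these counts. By RT-qPCR, the study reports both transcripts in [PRT1] approaching levels below its control. From these same libraries it also reports Gcn4-dependent genes, as a set, below wt. ADH5 was lower than in wt, at -0.87 (adjusted p = 0.0129). PCL5 was higher than in wt by 0.58 (adjusted p = 0.00701) and BAT1 by 1.16 (adjusted p = 5.84e-06), both on chromosome VIII. Mitochondrial ribosomal genes were lower than in wt in 12 cases and higher in 2, with a median of -0.35. Phosphate genes were higher in 11 cases and lower in 0, with a median of 0.59. Proteasome genes had a median of -0.26, with 3 higher and 3 lower, and outside the 3 chromosomes 1 higher and 3 lower. At an unadjusted p under 0.05, 3 proteasome genes were higher and 20 lower, and DESeq2 called 3 higher and 10 lower.

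Set against [RBS1], which carries another multicopy suppressor plasmid, [PRT1] differed in 955 genes (16.3%), of which 500 were higher and 455 lower, again with the same [PRT1] libraries. Arginine genes were lower in [PRT1] in 7 of 10 cases, with a median of -0.82, lysine genes in 6 of 9 and aromatic genes in 7 of 14. ARG1 had 110, 85.7 and 126 CPM in [PRT1], against 448, 310 and 491 CPM in [RBS1], a difference of -1.96. Branched-chain genes went the other way, with 7 higher and 2 lower and a median of 0.46. BAT1 was at 2.69 and OAC1 at 2.39, with OAC1 at 101, 82.1 and 102 CPM in [RBS1]. LEU2 itself, the marker of the [RBS1] plasmid, had 362, 508 and 497 CPM in [PRT1], against 2258, 1898 and 3028 CPM in [RBS1], and the part of leucine prototrophy in the branched-chain values was not tested. Phosphate genes were higher in [PRT1] in 20 of 26 cases, with a median of 0.89, and SPL2 had 13.2, 24.5 and 4.63 CPM in [RBS1].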

How the data were processed

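Poly(A) RNA was sequenced from 3 biological replicates of each of 5 strains. The authors mapped reads with TopHat2 (2.0.11) to the EF4 assembly, counted them in R with GenomicAlignments, and deposited the count of reads per gene without normalization. Counting mode and strandedness are not given in the sources used here, so overlapping and antisense genes are uncertain. Samples were mapped to strains from their labels. Genes needed 1.06 CPM in 3 libraries (about 10 reads in a library of median size) and at least 15 reads in all. Strain means of all 15 libraries were fitted with edgeR 4.0.16 (TMM, quasi-likelihood test, Benjamini-Hochberg adjustment over 5851 genes, threshold 0.05) in R 4.3.3. The authors' tool was DESeq2 1.24.0. The method was tested on simulated data. No replicates fell within sampling noise of each other (chi-square per gene 8.54 to 60.4).

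Genes were named as the plasmid, marker and neighbouring genes, those the study names, the 10 highest and 10 lowest called genes without overlap between libraries and a mean of at least 10 CPM, and up to 3 such members of each list in each direction. Values of other list members, and of SRY1, YHI9, RSM and MRP genes, were chosen after they were seen. The 36 lists match 953 of 955 genes, and members and lists were chosen with earlier results of these data known. R64 matched 5917 identifiers, and unmatched ones held 0.215% of the counts. The files carry no coordinates, and promoters, positions and chromosomes are those of R64. Alternatives were median-ratio factors, library totals, no filter, DESeq2 1.42.0, limma-voom (limma 3.58.1), 2 strains only, replicate block, length offsets, each library left out and a 2-fold minimum. Chromosome medians removed, and chromosomes I, VIII and XI left out, were added after seeing the data. Values of a few genes and sequences are not reported here.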

Additional observations from a re-analysis of the deposited data

How the results depend on the processing

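Of 2478 values of 149 named genes under the alternatives, 2316 kept their direction and side of the threshold, 147 lost the call, 1 gained it and 14 changed sign. The count of 1278 genes was 788 with chromosome medians removed, 687 without chromosomes I, VIII and XI, 193 with a 2-fold minimum and 1918 with length offsets and the replicate block together, and 1021 to 1199 with each library left out. The 474 higher genes were 305 with 2 strains only, 225 with chromosome medians removed, 201 without the 3 chromosomes, 42 with the 2-fold minimum, 896 with length offsets and block, and 372 to 429 with a library left out. The 804 lower genes were 486 without the 3 chromosomes, 151 with the 2-fold minimum, and 605 to 793 with a library left out. Against wt, 700 became 362 with chromosome medians removed, 303 without the 3 chromosomes, 1229 with the block, 1426 with length offsets and block, and 410 to 636 with a library left out. Against [RBS1], 955 became 620 without the 3 chromosomes, 1567 with length offsets and block, and 688 to 925 with a library left out. With length offsets, 68 mitochondrial ribosomal genes were called, with a median of -0.54.

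Residuals of same-numbered [PRT1] and rpc128-1007 libraries correlated at -0.0373, 0.136 and 0.551 in replicates 1 to 3. Replicate numbers were taken as pairs only if all 3 values passed 0.1, which failed at replicate 1. [PRT1] replicate 1 correlated best with rpc128-1007 replicate 2 (0.337). This rule does not show that replicate numbers are unrelated between strains. In each of the 5 strains the proteasome sum was highest in replicate 3 and lowest in replicate 2. The phosphate sum was highest in replicate 2 and lowest in replicate 3 in each strain. A replicate effect shared by some or all of the libraries was not tested beyond the fit with the replicate block. With the replicate block 1650 genes were called, 694 higher and 956 lower, and 1379 against [RBS1].

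With chromosome medians removed the sign turned for PUT2 (-0.26), LEU5 (-0.17), YHR020W (-0.31), DED81 (-0.49), RPT1 (0.17), MRPL6 (-0.21), RPC37 (0.010), ERG11 (-0.057), CTR2 (-0.18) and STE12 (-0.19), which lie on chromosomes VIII or XI. With each library left out in turn, RET1, not called, lay between -0.11 and 0.022, and IGD1, not called, between -0.18 and 0.55. With 3 libraries a strain, small shifts such as those of proteasome and mitochondrial ribosomal genes move in and out of the calls, and genes under the filter were not tested.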

Other observations

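Mating and meiosis genes held several changes that no comparison above describes. The shares over all tested genes were 8.1% higher and 13.7% lower, and 4.92% and 10.4% outside chromosomes I, VIII and XI. Of 13 a-specific and pheromone genes 3 were higher and 3 lower. Outside chromosomes I, VIII and XI, 2 of 11 were higher and 2 lower. The alpha-factor receptor gene STE2 had 382, 387 and 360 CPM in [PRT1], against 625, 529 and 526 CPM in rpc128-1007, a difference of -0.57 (edgeR, adjusted p = 9.75e-05). BAR1, the protease that degrades alpha-factor, fell by 0.61, and AGA1, the anchor of the agglutinin, rose by 0.77, with 97.0, 86.6 and 90.4 CPM in [PRT1], against 46.2, 57.3 and 56.9 CPM in rpc128-1007. Of 17 meiosis genes 4 were higher and 0 lower, but outside chromosomes I, VIII and XI the count was 1 of 14.

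Of 42 heat shock and stress genes 2 were higher and 5 lower, and outside the 3 chromosomes 0 were higher and 4 lower. The count of 7 was 4 without [PRT1] replicate 3. Over all tested genes 8.1% were higher and 13.7% lower, and outside the 3 chromosomes 4.92% and 10.4%. The lower calls among heat shock and stress genes were close to those shares. The mitochondrial chaperone gene HSP60 had 507, 521 and 626 CPM in [PRT1], against 798, 950 and 1043 CPM in rpc128-1007, a difference of -0.75 (adjusted p = 0.00625). GPP1, a glycerol phosphatase, fell by 0.71. Of 35 iron, copper and zinc genes 1 was higher and 9 lower, and outside the 3 chromosomes 0 of 28 were higher and 7 lower. The count of 10 was 5 without [PRT1] replicate 1 or 3 and 6 without [PRT1] replicate 2. With chromosome medians removed, 0 of the 35 were higher and 3 lower. Of 28 ergosterol genes 4 were higher and 5 lower, and 1 and 5 outside the 3 chromosomes, where ERG3, a sterol desaturase, fell by 0.41. Of 39 cell wall and flocculation genes 7 were higher and 7 lower, and outside the 3 chromosomes 5 of 29 were higher and 3 lower. The count of 14 was 9 without [PRT1] replicate 1. CWP1, a cell wall mannoprotein gene on chromosome XI, fell by 1.70. Of 24 hexose transport genes 4 were higher and 2 lower, and outside the 3 chromosomes 4 of 20 were higher and 1 lower, among them the low-affinity transporter HXT3 at -0.60, and HXT15 and HXT16 are near-identical copies. Of 22 glycogen and trehalose genes 1 was higher and 1 lower, and outside the 3 chromosomes 1 of 19 was higher and 0 lower. The count of 2 was 1 without [PRT1] replicate 1 or rpc128-1007 replicate 1 or 3.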
